A study of Homo sapiens with 6 samples.

Results

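HRAS, NRAS, ARAF, BRAF, MAP2K1, MAP2K2 and MAPK3 encode proteins of the RAS, RAF, MEK and ERK tiers of the mitogen-activated protein kinase (MAPK) cascade, and these 7 genes were taken by name from the 58735 genes of the RNA-seq table. All 7 passed the expression minimum, a mean of at least 1 FPKM (fragments per kilobase of exon, scaled to the library total) over the 6 libraries, which left 13796 genes for testing. The libraries were made from HCT116SCs, the CD44+CD326+ stem-like cells sorted magnetically from the colorectal cancer line HCT116 and grown as tumour spheres in serum-free medium with B27, EGF at 20 ng/mL and bFGF at 20 ng/mL. In 3 libraries the cells had received negative control siRNA (NC, genotype labelled WT), and in 3 they had received PSCA siRNA (siPSCA, labelled as PSCA knockdown). All cells were transfected with a liposomal reagent and harvested 48 h later, and total RNA was taken. Both groups come from a single cell line, the siRNA sequence behind these libraries is not named, and no label says whether replicates were separate cultures, so p-values measure only the spread between these samples.

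The cascade carries growth factor signals from the cell membrane to the nucleus. RAS proteins are small GTPases that sit on the inner face of the membrane, and when bound to GTP they recruit RAF kinases, which phosphorylate the dual-specificity MEK kinases, which in turn phosphorylate ERK. Vertebrates hold several closely related genes, or paralogs, in each tier, and in colorectal cancer the pathway is a frequent site of activating mutations. Its activity is set chiefly by GTP loading and phosphorylation, which transcript levels do not measure.

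The libraries held 16803235 to 18218661 counted fragments in all, with 16099716 to 17302219 on genes. PSCA, the targeted gene, had 4, 12 and 15 reads in NC and 9, 9 and 7 reads in siPSCA, too few to show whether its transcript was reduced (log2 fold change -0.07, SE 0.12, adjusted p = 0.728 in a fit with no expression minimum). CD44 and EPCAM, the genes of the sort markers, stood at 82.6 and 107 FPKM in NC. Of 8 sort and epithelial markers 7 had a mean of at least 1 FPKM, with VIL1 near 0. Of those 7, KRT8, KRT19 and CDX2 were higher in siPSCA (log2 fold change 0.22, 0.25 and 0.70), CD44 and CDH1 were lower (-0.44 and -0.60), and EPCAM and KRT18 did not pass the threshold (-0.16 and -0.14). Of 13 markers of leukocytes, endothelium and fibroblasts, only COL1A1 reached 1 FPKM, CD3E and CD68 were at 0 in every library, and the summed level was 3.84 to 6.25 FPKM in NC against 6.60 to 7.04 FPKM in siPSCA. The part of these genes in the results was not tested. GC-rich genes tended to be higher in siPSCA: over 13792 genes, exon GC content and log2 fold change had a Spearman correlation of 0.67, and of 0.61 without the library NC 3. NC 3 stood apart from the other NC libraries in this respect, since its difference from their mean correlated with GC content at -0.57 across genes. The changes of the 7 genes, the paralog ratios and the regulator lists are therefore also given with a further step (below, the trend removed). In that step a smooth dependence on exon GC content and gene length was subtracted library by library. This brings the correlation near 0 by design, here to 0.02. The groups differ along this trend, so the step also removes any group difference that follows GC content or length. The changes of the 7 genes and the paralog ratios are also given without NC 3, but the values of the named regulators all include it.

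The paralogs of a tier encode similar proteins with DNA of different base composition. Over the coding regions of HRAS and NRAS, 567 bases each, 153 bases differ, 111 of them at the third codon position, and HRAS has G or C at 123 of the 153 whereas NRAS has G or C at 40. For the RAF and MEK pairs the stretches below show where the DNA differs. Each is 90 coding bases long and is the window in which the members of the pair are most alike without gaps. The sequences were read from the principal coding transcript of each gene in GENCODE 29 on GRCh38, 5′ to 3′ on the coding strand, and capitals mark the bases that differ between the 2 members of a pair. The RAF windows, from the kinase domain, lie at chrX:47568869-47569555 on the plus strand (coding bases 1228 to 1317 of ARAF) and at chr7:140753377-140776937 on the minus strand (coding bases 1669 to 1758 of BRAF), and each spans an intron.
ARAF: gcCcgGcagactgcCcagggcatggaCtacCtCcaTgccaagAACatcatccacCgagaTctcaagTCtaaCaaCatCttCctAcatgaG
BRAF: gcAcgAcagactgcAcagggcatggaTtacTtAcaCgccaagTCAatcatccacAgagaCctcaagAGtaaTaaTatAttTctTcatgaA

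The RAF windows differ at 20 bases, 14 of them at the third codon position, with G or C at 14 of the 20 in ARAF and at 4 in BRAF. The MEK windows lie at chr19:4101049-4101138 on the minus strand (coding bases 586 to 675 of MAP2K2) and at chr15:66481760-66481849 on the plus strand (coding bases 574 to 663 of MAP2K1).
MAP2K2: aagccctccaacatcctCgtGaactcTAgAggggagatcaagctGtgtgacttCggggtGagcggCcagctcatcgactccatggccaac
MAP2K1: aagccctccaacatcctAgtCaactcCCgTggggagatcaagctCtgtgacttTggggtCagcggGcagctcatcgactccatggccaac

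The MEK windows differ at 9 bases, 8 of them at the third codon position, with G or C at 6 of the 9 in each gene, so this stretch shows no difference in base composition. Over the whole coding regions the third codon position held G or C in 83.8% of MAP2K2 codons against 63.9% of MAP2K1 codons. The same share was 81.5% in HRAS and 46.0% in NRAS, 74.6% in ARAF and 41.4% in BRAF, and 82.1% in MAPK3. In the exons as a whole, GC content was 68.6% in HRAS, 63.5% in MAP2K2, 62.0% in MAPK3, 53.6% in ARAF, 49.4% in MAP2K1, 38.4% in NRAS and 38.1% in BRAF, where the median of the genes tested was 48.0%. HRAS lay at the 99.3rd percentile of GC content and BRAF at the 7.76th, and the members of a pair were 14.1 to 30.1 percentage points apart.

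With the values as deposited, 6 of the 7 genes passed an adjusted p under 0.05 in the limma fit of log2(FPKM + 1), against a background of 50.7% of all genes tested. HRAS, ARAF and MAP2K2 were higher in siPSCA (background 26.6%), NRAS, BRAF and MAP2K1 were lower (background 24.2%), and MAPK3 did not pass. One member of each pair was thus higher and the other lower. In RNA from whole cultures, fewer cells of a kind and less RNA per cell cannot be told apart. The libraries of the groups did not overlap for the same 6 genes, against 64.5% of all genes tested. Over the 7 genes the log2 fold changes had a median of 0.13, beside 0.01 over all genes. With an unadjusted p under 0.05 and an absolute log2 fold change over 0.5, HRAS and MAP2K2 were called, against 24.9% of all genes. BRAF, at -0.46, fell short of that fold with 1 added to FPKM, but was at -0.61 with 0.1 added instead. With the GC and length trend removed, 2 of the 7 passed the adjusted threshold, MAP2K1 and MAPK3, both lower in siPSCA. The background of that fit was 39.5%, with 21.2% higher and 18.3% lower. By unadjusted p and fold only MAP2K1 was then called, against 11.4%. Without NC 3, 6 of the 7 passed the adjusted threshold, against 53.8%, and 0 passed by unadjusted p and fold, against 20.1%, where all 7 had an absolute log2 fold change of at most 0.50. HRAS was then at 0.47, NRAS at -0.14, ARAF at 0.29, BRAF at -0.39 and MAPK3 at 0.10, and MAP2K1 and MAP2K2 are given below. The exact permutation test of a single gene, 2-sided, cannot fall below p = 0.1 with 3 libraries against 3, and it gave 0.1 for the same 6 genes and 0.2 for MAPK3.

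**Figure D1:**
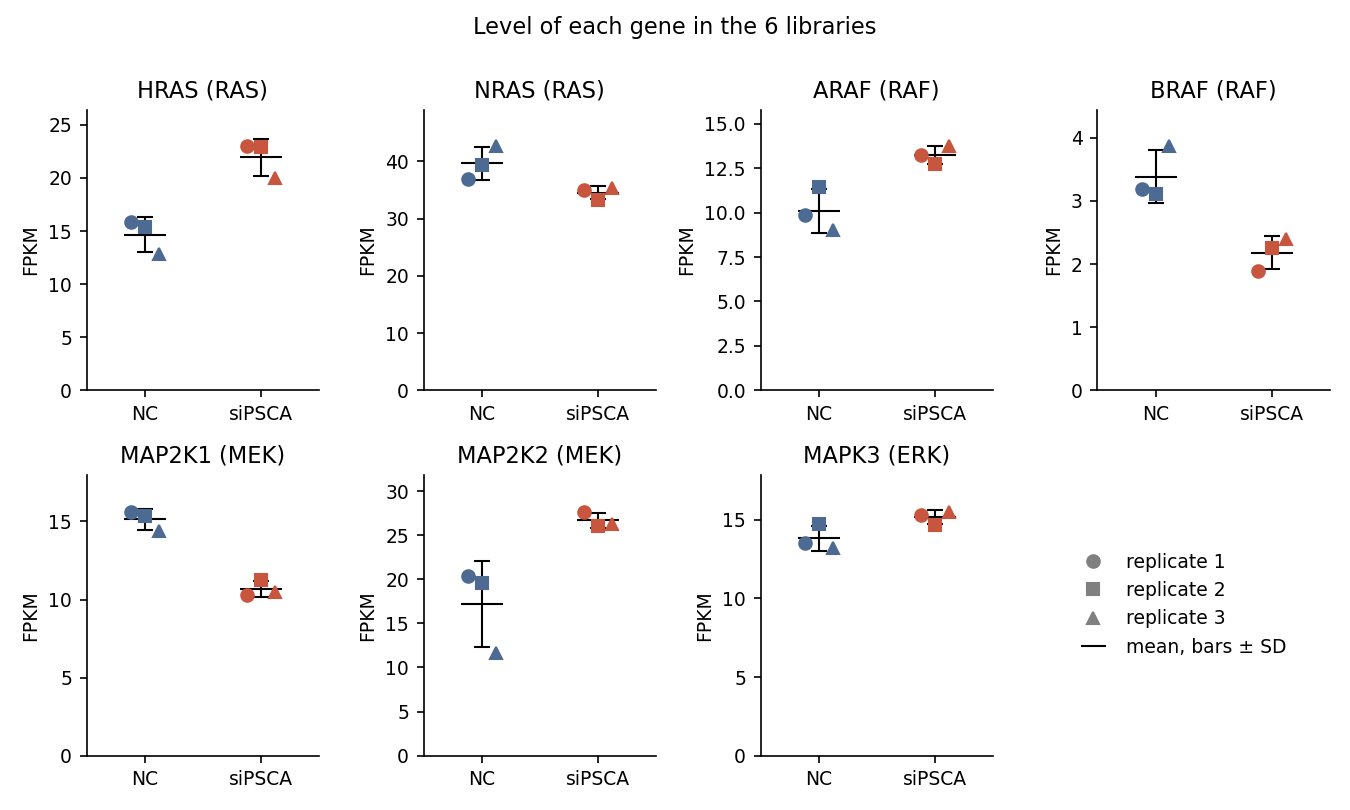
FPKM of each of the 7 genes (vertical axes, starting at 0) in the 3 NC and the 3 siPSCA libraries. Points are libraries, lines are group means and bars are ± SD. The groups overlap for MAPK3 only, and MAP2K2 in NC 3, at 11.6 FPKM, lies well below the other NC libraries.

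In the RAS tier, HRAS rose and NRAS fell. HRAS (ENSG00000174775) lies on the minus strand of chromosome 11, at chr11:532242-537287, and has 1854 exon bases. It was at 15.8, 15.4 and 12.8 FPKM in NC and at 23.0, 22.9 and 20.0 FPKM in siPSCA, from 409 to 755 reads per library. Every siPSCA library lay above every NC library. The mean went from 14.7 ± 1.63 to 22.0 ± 1.73 FPKM (SD, n = 3 each), 49.7% higher, with a log2 fold change of 0.55 (SE 0.097, adjusted p = 0.00549). The log2 fold change of HRAS was -0.33 (SE 0.142, adjusted p = 0.114) with the trend removed, so the direction turned and the call was lost. When NC 3 was left out as well, a setting chosen after the data were seen, HRAS passed as lower in siPSCA, at -0.16 (adjusted p = 0.0349).

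NRAS (ENSG00000213281) lies on the minus strand of chromosome 1, at chr1:114704469-114716894, with 4449 exon bases in 1 annotated transcript. It was at 36.9, 39.4 and 42.6 FPKM in NC and at 35.0, 33.2 and 35.4 FPKM in siPSCA, from 2624 to 3268 reads per library. The groups were separate, but the lowest NC library and the highest siPSCA library were close. The mean was 39.7 ± 2.86 FPKM in NC and 34.5 ± 1.19 FPKM in siPSCA, 12.9% lower, a log2 fold change of -0.19 (SE 0.065, adjusted p = 0.0482). This was the smallest change among the 6 genes called, and it lay at the edge of the threshold. Its direction also turned when the trend was removed, to 0.11 (SE 0.044, adjusted p = 0.0818), and with NC 3 left out as well NRAS passed as higher in siPSCA, at 0.13 (adjusted p = 0.0431).

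In the RAF tier, ARAF rose and BRAF fell. ARAF (ENSG00000078061, chrX:47561100-47571920, plus strand, 3535 exon bases) encodes the RAF kinase with the lowest basal activity. It was at 9.88, 11.5 and 9.02 FPKM in NC and at 13.2, 12.7 and 13.7 FPKM in siPSCA, from 549 to 885 reads per library. All siPSCA libraries lay above the NC libraries. The mean rose from 10.1 ± 1.24 to 13.2 ± 0.512 FPKM, by 30.8%, with a log2 fold change of 0.36 (SE 0.088, adjusted p = 0.0166). It did not pass with the trend removed, at 0.15 (SE 0.071, adjusted p = 0.145).

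BRAF (ENSG00000157764, chr7:140719327-140924928, minus strand) encodes the RAF kinase with the highest basal activity, which is often mutated in cancer. It was at 3.19, 3.11 and 3.87 FPKM in NC and at 1.89, 2.25 and 2.40 FPKM in siPSCA, from 751 to 1561 reads per library. Each siPSCA library lay below each NC library. The mean fell by 35.6%, from 3.39 ± 0.417 to 2.18 ± 0.260 FPKM, with a log2 fold change of -0.46 (SE 0.102, adjusted p = 0.0116). The log2 fold change of BRAF was -0.0014 with the trend removed (SE 0.066, adjusted p = 0.989). NDUFB2, a subunit of mitochondrial complex I on the opposite strand, shares 1239 exon bases with BRAF, 5.29% of the BRAF exons, and the strand setting of the counting is not given in the sources used here. NDUFB2 moved the other way, from 4.88 to 8.87 FPKM (log2 fold change 0.75, adjusted p = 0.00129).

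In the MEK tier, MAP2K2 rose and MAP2K1 fell. MAP2K1 (ENSG00000169032, chr15:66386817-66492312, plus strand, 3759 exon bases) encodes MEK1. It was at 15.6, 15.4 and 14.4 FPKM in NC and at 10.3, 11.3 and 10.5 FPKM in siPSCA, from 656 to 1006 reads per library. The groups were wide apart, and libraries within a group were close. The mean fell by 29.3%, from 15.1 ± 0.651 to 10.7 ± 0.510 FPKM, with a log2 fold change of -0.46 (SE 0.058, adjusted p = 0.00198). MAP2K1 alone among the 7 kept both its direction and its call with the trend removed, at -0.54 (SE 0.055, adjusted p = 0.00103). Without NC 3 the value for MAP2K1 was -0.50 (adjusted p = 0.000787). Opposite-strand exons overlap 216 bases of MAP2K1 in SNAPC5 (log2 fold change 0.22, adjusted p = 0.164) and 432 bases in the antisense gene AC116913.1, which was under 1 FPKM in both groups. The pseudogene MAP2K1P1 had at most 5 reads in a library.

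MAP2K2 (ENSG00000126934, chr19:4090321-4124129, minus strand, 5236 exon bases) encodes MEK2. It was at 20.4, 19.6 and 11.6 FPKM in NC and at 27.7, 26.1 and 26.3 FPKM in siPSCA, from 1049 to 2507 reads per library. The siPSCA libraries lay close together above all NC libraries, and NC 3 lay far below NC 1 and NC 2. The mean went from 17.2 ± 4.84 to 26.7 ± 0.858 FPKM, 55.1% higher, with a log2 fold change of 0.64 (SE 0.200, adjusted p = 0.0369). NC 3 decided the size of this change and its spread: without it the log2 fold change of MAP2K2 was 0.40 (adjusted p = 0.000948). MAP2K2 did not pass with the trend removed from all libraries, at 0.05 (SE 0.075, adjusted p = 0.615).

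MAPK3 (ENSG00000102882, chr16:30114105-30123506, minus strand, 3669 exon bases) encodes ERK1, a terminal kinase of the cascade. It was at 13.5, 14.7 and 13.2 FPKM in NC and at 15.3, 14.6 and 15.5 FPKM in siPSCA, from 833 to 1037 reads per library. The groups overlapped, since NC 2 lay above siPSCA 2. The means were 13.8 ± 0.803 and 15.2 ± 0.456 FPKM, with a log2 fold change of 0.13 (SE 0.058, adjusted p = 0.114). With the trend removed the log2 fold change of MAPK3 was -0.41 (SE 0.103, adjusted p = 0.0223), lower in siPSCA and past the threshold.

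The largest counting CV of a single library ranged from 1.95% for NRAS to 4.94% for HRAS, whereas the CV between libraries of a group ranged from 3.01% for MAPK3 in siPSCA to 28.1% for MAP2K2 in NC. Such counting errors cover sampling of reads only.

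**Figure D2:**
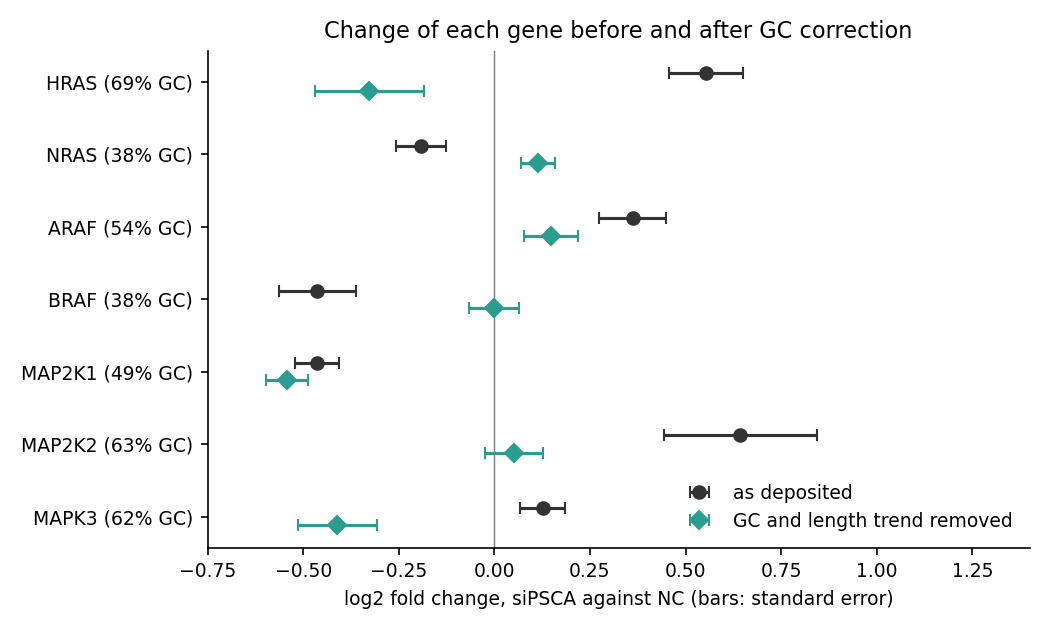
log2 fold change of siPSCA against NC for each of the 7 genes, with bars for the standard error, from FPKM as deposited (circles) and with the GC and length trend taken out (diamonds). MAP2K1 stays near -0.5 in both, while HRAS goes from 0.55 to -0.33 and MAP2K2 from 0.64 to 0.05.

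**Figure D3:**
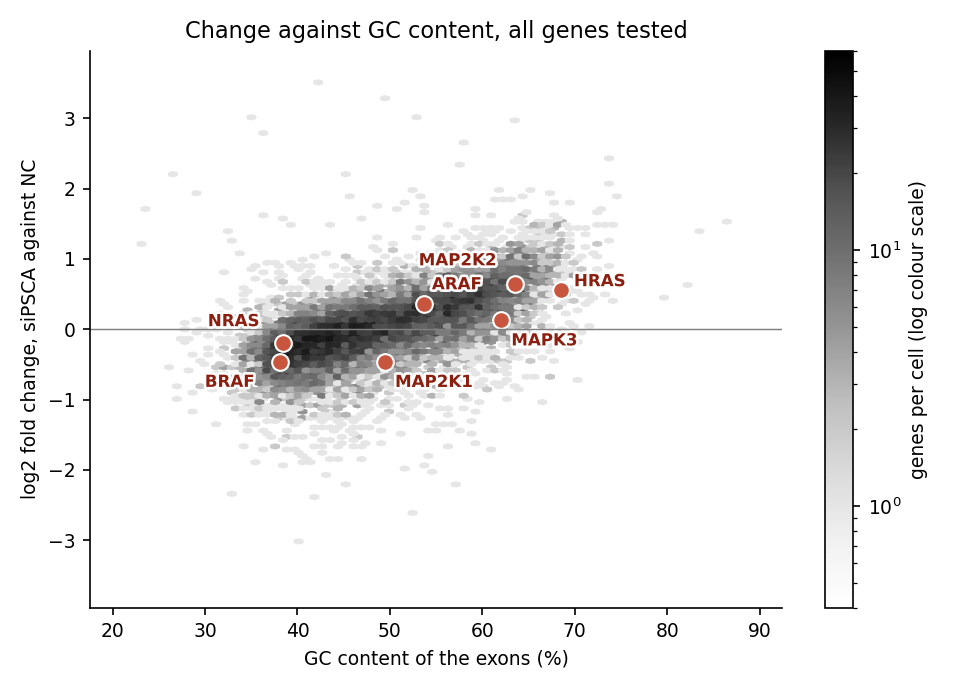
log2 fold change of siPSCA against NC (vertical) against the GC content of the exons in percent (horizontal) for the genes tested, with darker cells holding more genes on a log colour scale and the 7 genes as red points. The cloud of genes slopes upward, and MAP2K1, MAPK3 and HRAS lie inside it, below its centre.

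The ratio of the paralogs within a library does not depend on the library total. The level of a ratio, share or sum depends on the exon length used, here that of all annotated exons. So does the difference of a share or sum between the groups. The difference of a log2 ratio between the groups does not. HRAS to NRAS was 0.428, 0.390 and 0.300 in NC and 0.657, 0.690 and 0.563 in siPSCA. No libraries of the groups overlapped, and on this scale NRAS remained the higher of the pair in all 6. On the scale of the principal transcript, described below, HRAS was the higher in siPSCA 1 and siPSCA 2. The values there were 37.0 and 36.9 for HRAS against 35.0 and 33.2 for NRAS, and NRAS was the higher in the remaining libraries. The log2 ratio went from -1.44 ± 0.27 to -0.66 ± 0.15, a difference of 0.78 (SE 0.177), or 1.72-fold. HRAS made up 27.0% of the summed FPKM of the pair in NC and 38.8% in siPSCA. The sum itself was 54.3 ± 1.39 FPKM in NC and 56.5 ± 1.35 FPKM in siPSCA, with overlapping groups (exact permutation test, 2-sided, p = 0.2). Per kilobase of the principal transcript the mean of HRAS went from 23.6 to 35.4 and that of NRAS from 39.7 to 34.5. On that scale the sum was higher in siPSCA and the groups did not overlap, so the overlap depends on the exon length used.

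ARAF to BRAF was 3.10, 3.69 and 2.33 in NC and 6.98, 5.65 and 5.72 in siPSCA. The lowest siPSCA ratio was well above the highest NC ratio. The log2 ratio went from 1.58 ± 0.33 to 2.61 ± 0.17, a difference of 1.03 (SE 0.216), or 2.04-fold, and the share of ARAF in the pair went from 74.7% to 85.9%. The sum of the pair was 13.5 ± 0.919 FPKM in NC and 15.4 ± 0.639 FPKM in siPSCA, 14.1% higher, with groups that did not overlap (exact permutation test, 2-sided, p = 0.1, the smallest possible). That rise depends on the exon length used. Per kilobase of the principal transcript the mean of ARAF went from 14.5 to 19.0 and that of BRAF from 12.3 to 7.92. The rise and the fall then nearly cancelled, and the sums of the groups overlapped.

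MAP2K2 to MAP2K1 was 1.30, 1.27 and 0.808 in NC and 2.68, 2.31 and 2.51 in siPSCA. In NC the genes were at similar levels per kilobase of all annotated exons, and their order turned in NC 3. In each siPSCA library MAP2K2 was clearly the higher. On the scale of the principal transcript MAP2K2 was the higher in NC as well, at 51.9 against 16.7 on average and at 35.1 against 15.9 in NC 3. The log2 ratio went from 0.14 ± 0.39 to 1.32 ± 0.11, a difference of 1.18 (SE 0.233), or 2.26-fold, and the share of MAP2K2 went from 52.4% to 71.4%. The sum of the MEK pair was 36.0, 35.0 and 26.0 FPKM in NC and 38.0, 37.4 and 36.8 FPKM in siPSCA, without overlap (exact permutation test, 2-sided, p = 0.1). The difference of the mean sums was 5.04 FPKM with all libraries and 1.88 FPKM without NC 3.

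Each of the 3 ratio differences had p = 0.1 in the exact permutation test (2-sided), the smallest that the 20 splits of 3 against 3 libraries allow, and adjustment over the 3 left it at 0.1. Without NC 3 the differences in log2 ratio were 0.63 for HRAS to NRAS, 0.85 for ARAF to BRAF and 0.95 for MAP2K2 to MAP2K1. With the trend removed they were -0.44 (SE 0.160), 0.15 (SE 0.112) and 0.59 (SE 0.084). The HRAS to NRAS difference thus turned, the ARAF to BRAF groups came to overlap (exact permutation test, p = 0.4), and the MAP2K2 to MAP2K1 difference kept its direction with groups that did not overlap.

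**Figure D4:**
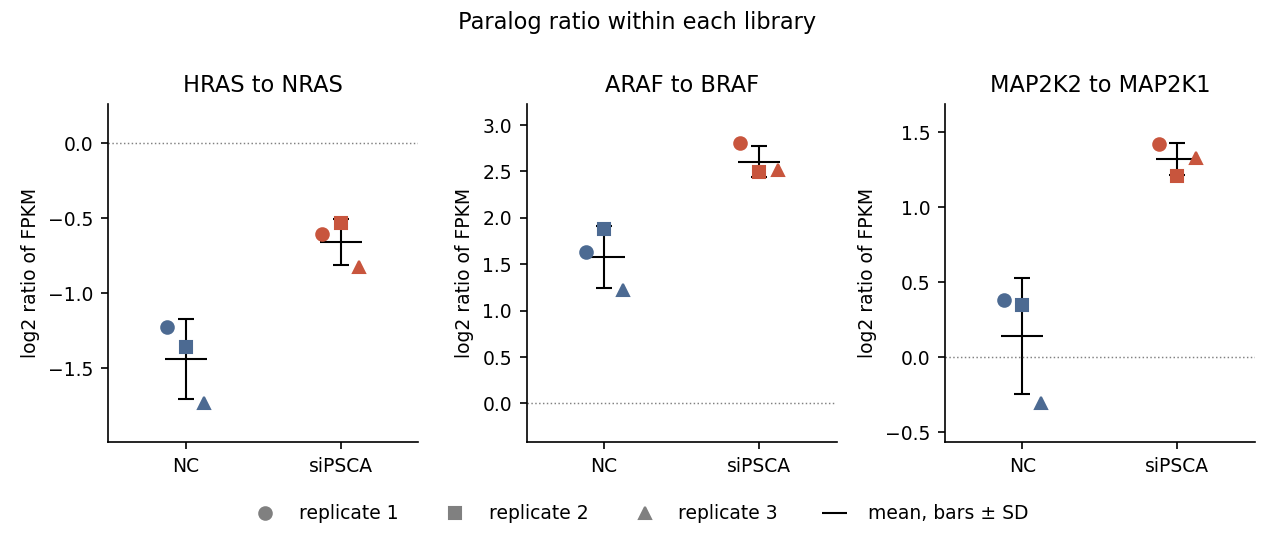
log2 ratio of FPKM of HRAS to NRAS, ARAF to BRAF and MAP2K2 to MAP2K1 in each library, from the deposited values. Points are libraries, lines are group means, bars are ± SD, and the dotted line marks equal levels. The groups are separate in all 3 panels, and each siPSCA group lies higher.

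The order of the levels can be read per kilobase of all annotated exons, as deposited. In NC this order was NRAS, MAP2K2, MAP2K1, HRAS, MAPK3, ARAF and BRAF, where MAP2K2 and MAP2K1, MAP2K1 and HRAS, and HRAS and MAPK3 had overlapping ranges. In siPSCA it was NRAS, MAP2K2, HRAS, MAPK3, ARAF, MAP2K1 and BRAF, and no neighbours overlapped. By mean level MAP2K1 held rank 3 of the 7 in NC and rank 6 in siPSCA. The low FPKM of BRAF goes with its length, as the gene has 23432 annotated exon bases whereas its principal transcript has 6458. Levels can also be scaled to the length of the principal transcript. All reads on a gene are then credited to that transcript, including reads on exons outside it. HRAS has 3 annotated principal transcripts, and the longest, of 1151 bases, was used, so its level on this scale depends on that choice. Per kilobase of the principal transcript, a scale chosen after the data were seen, BRAF had the lowest mean of the 7, at 12.3 in NC and 7.92 in siPSCA, but in NC its range overlapped that of ARAF, and in NC 3 BRAF was the higher, at 14.0 against 13.0. On that scale MAP2K2 had the highest mean, at 51.9 in NC and 80.5 in siPSCA, but in NC its range overlapped that of NRAS, which was the higher in NC 3, at 42.6 against 35.1. HRAS and NRAS, at 35.4 and 34.5 in siPSCA, had overlapping ranges, and MAP2K1 held rank 5 in NC and rank 6 in siPSCA.

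The genes whose pattern over the 6 libraries was most like that of each member were found among 11078 protein-coding genes by the Pearson correlation of log2(FPKM + 1), as a description. They were ZNF205 for HRAS, GABARAPL2 for NRAS, PCIF1 for ARAF, CHD1 for BRAF, CEP152 for MAP2K1, ACSF3 for MAP2K2 and STAC3 for MAPK3. Their correlations lay between 0.992 and 1.00. Such values were common, as 1933 genes exceeded 0.95 with HRAS, 1501 with MAP2K2 and 1147 with BRAF. MAPK3 had only 36 such genes.

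The regulators of the cascade moved in both directions. Of 104 genes in 6 lists by role, 90 passed the expression minimum, and 60 of these passed the adjusted threshold, 26 higher and 34 lower in siPSCA. That is 66.7% of those tested, beside a background of 50.7%, and their median log2 fold change was -0.05 beside 0.01 for all genes. With the GC and length trend removed, 30 of 90 passed, or 33.3% beside a background of 39.5%, with 13 higher and 17 lower. There were 20 genes that passed in the same direction in both. No share of all genes that did so is given, so this count has no background beside it. The counts of each list below stand beside a background over all genes of 26.6% higher and 24.2% lower, and of 21.2% higher and 18.3% lower with the trend removed.

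Among the exchange factors, which load GTP onto RAS and RAP, and the receptor adaptors that recruit them, 3 of 14 tested were higher (21.4%) and 5 lower (35.7%). SOS1, the main exchange factor downstream of growth factor receptors, fell from 10.1 ± 1.14 to 6.05 ± 0.545 FPKM (log2 fold change -0.65, adjusted p = 0.00332), and with the trend removed it was still lower (-0.27, adjusted p = 0.0225). Its relative SOS2 fell from 7.43 to 4.94 FPKM (log2 fold change -0.50, adjusted p = 0.00663), but not past the threshold with the trend removed (-0.18, adjusted p = 0.0887). RAPGEF1, an exchange factor for RAP1, rose from 11.1 to 15.9 FPKM (0.48), and the adaptor SHC2 from 1.44 to 2.69 FPKM (0.60). With the trend removed, neither passed, at 0.14 and -0.12, and the list held 4 genes that were lower and 0 that were higher.

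The next list held GTPase-activating proteins, which return RAS to its GDP-bound state, and beside them SPRED1, SPRED2 and SPRED3. Of its 11 tested genes, 3 were higher (27.3%) and 5 lower (45.5%), with SPRED1 and SPRED2 among the lower. With the trend removed 0 were higher and 3 lower, with SPRED2 among the lower. RASA1, which binds activated receptors, fell from 12.2 ± 0.909 to 7.87 ± 0.195 FPKM (log2 fold change -0.57, adjusted p = 0.00157), and RASA2 from 7.74 to 4.68 FPKM (-0.62). Both remained called with the trend removed, at -0.42 and -0.27. DAB2IP rose from 4.47 to 7.22 FPKM (0.61) and RASAL1 from 3.39 to 4.74 FPKM (0.39), and with the trend removed neither passed (0.17 and -0.02).

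Among the 16 genes for lipid modification, trafficking and turnover of RAS, 7 were higher (43.8%) and 5 lower (31.2%), and with the trend removed 4 were higher and 1 lower. LYPLA2, a thioesterase that removes palmitate, rose from 24.8 ± 5.11 to 51.3 ± 2.36 FPKM (log2 fold change 1.04, adjusted p = 0.00299). RCE1, the protease that trims the tail of farnesylated RAS, rose from 5.66 to 11.4 FPKM (0.91). Both stayed higher with the trend removed, at 0.51 and 0.35. GOLGA7, the partner of the RAS palmitoyltransferase, fell from 17.7 to 12.9 FPKM (-0.43, and -0.35 with the trend removed). CUL3, a ubiquitin ligase scaffold, fell from 11.7 to 8.45 FPKM (-0.42), and with the trend removed it did not pass (adjusted p = 0.967).

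Of 30 scaffolds, activators and inhibitors of RAF and MEK, 10 were higher and 10 lower (33.3% each), and with the trend removed 5 were higher and 3 lower. SFN, a 14-3-3 protein, rose from 116 ± 9.75 to 203 ± 17.5 FPKM (log2 fold change 0.81, adjusted p = 0.0015), and LAMTOR1, which anchors a MEK scaffold to late endosomes, from 13.0 to 21.6 FPKM (0.68). Both also passed with the trend removed, at 0.28 and 0.49. PPP1CB, a phosphatase subunit that acts on RAF together with SHOC2, fell from 42.3 ± 2.01 to 27.3 ± 0.573 FPKM (-0.61, and -0.26 with the trend removed, both past the threshold). The scaffold IQGAP1 fell from 55.2 to 39.2 FPKM (-0.47) and was at -0.22 with the trend removed (adjusted p = 0.0534).

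Of 13 RAS-related small GTPases, 1 was higher (7.69%) and 8 were lower (61.5%), with a median log2 fold change of -0.24 beside 0.01 over all genes. RIT1 fell from 6.37 ± 0.167 to 4.23 ± 0.0779 FPKM (-0.50, adjusted p = 0.00129) and RAP1A from 10.3 to 7.04 FPKM (-0.48), while DIRAS1 rose from 11.1 to 14.6 FPKM (0.37). With the trend removed RIT1 remained called (-0.25), RAP1A and DIRAS1 did not (-0.18 and -0.08), and the list held 3 genes higher and 4 lower. Of 6 kinases that ERK activates, 2 were higher and 1 was lower, and with the trend removed 1 was higher and 2 were lower. RPS6KA4, also known as MSK2, rose from 11.2 ± 3.34 to 25.9 ± 2.26 FPKM (log2 fold change 1.18, adjusted p = 0.00541), and RPS6KA3, also known as RSK2, fell from 12.5 ± 0.402 to 7.83 ± 0.432 FPKM (-0.61, adjusted p = 0.00101). Both kept their calls with the trend removed, at 0.51 and -0.35, whereas RPS6KA1, which rose from 11.6 to 15.9 FPKM (0.42), did not (0.10).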

How the data were processed

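The authors deposited one table of FPKM values per gene and library, with gene lengths that equal the union of GENCODE 29 exons for 99.9% of 58735 genes. The aligner, the counting program and its strand setting are not given in the sources used here. FPKM times length gave whole reads for 100% of values (tolerance 0.1 read), from which the reads per gene were taken. Groups follow the labels. The titles of siPSCA 2 and siPSCA 3 name the line with other numbers than the remaining labels, which name HCT116. No column was left out (0 not used).

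Values were analysed with R 4.3.3, limma 3.58.1 and mgcv 1.9.3, and in Python 3.11.15 with scipy 1.17.1, numpy 2.4.6, pandas 2.3.3 and matplotlib 3.10.9. limma (lmFit, eBayes with trend, 2-sided) was fitted to log2(FPKM + 1) of 13796 genes whose mean FPKM reached 1, with Benjamini-Hochberg adjustment over all of them. Fold changes are on that scale and understate those of low genes. The GC and length trend was a smooth fitted per library over the genes tested. The script was tested on simulated data. Ratios were compared by exact permutation tests on log2 FPKM ratios with no pseudocount.

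The 7 genes, the lists and the tests were chosen with earlier results of these data known. The text names the 7 genes, PSCA, the markers, in each list up to 2 called genes with the largest rise and 2 with the largest fall, the gene most like each member, and overlapping genes and pseudogenes. Beside those given above, SYN1 on the opposite strand shares 23 exon bases with ARAF. The pseudogenes ARAFP1, ARAFP2, ARAFP3 and BRAFP1 had 0 reads in every library. Remaining paralogs of these families are not reported here. Alternatives covered the pseudocount, the minimum, scaling, base composition, a replicate block and each library left out.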

Additional observations from a re-analysis of the deposited data

How the results depend on the processing

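Across all settings tried, MAP2K1 kept its direction and its call. The GC and length trend changed most results. With it removed, HRAS was at -0.33, NRAS at 0.11, ARAF at 0.15, BRAF at -0.0014, MAP2K2 at 0.052 and MAPK3 at -0.41 on the log2 scale, 2 of the 7 genes and 30 regulators were called, and the log2 ratio of HRAS to NRAS differed by -0.44. With NC 3 left out as well, a setting chosen after seeing the data, HRAS was at -0.16, NRAS at 0.13, ARAF at 0.11, BRAF at 0.038, MAP2K2 at -0.030 and MAPK3 at -0.30, with 37 regulators and 4 of the 7 genes called, beside 42.7% of all genes. HRAS, MAP2K1 and MAPK3 were then lower in siPSCA and NRAS was higher, so HRAS and NRAS passed against their direction in the deposited values (adjusted p = 0.0349 and 0.0431). The call of NRAS was also lost with no expression minimum (-0.19, adjusted p = 0.0936), with TPM (-0.24, adjusted p = 0.0584), with TMM factors (-0.17, adjusted p = 0.0726) and with limma-voom on the recovered reads, added after seeing the data (-0.17, adjusted p = 0.0595). That of MAP2K2 was lost with no minimum (0.64, adjusted p = 0.0951), a fit over 34391 genes. The cause was not tested. The log2 fold change of BRAF passed 0.5 in size with a pseudocount of 0.1 (-0.61), TPM (-0.62) and limma-voom (-0.61). That of MAP2K1 did so with TPM (-0.54), but not with that pseudocount (-0.497) or limma-voom (-0.474). When a library was left out, NRAS ranged from -0.24 to -0.14, ARAF from 0.29 to 0.45 and MAP2K2 from 0.40 to 0.78, with 3 to 6 of the 7 genes and 34 to 60 regulators called. NRAS lost its call without NC 2 or any siPSCA library, ARAF without siPSCA 1 or siPSCA 3, and MAP2K2 without any siPSCA library. The count of the 7 genes fell to 3 without siPSCA 1 or siPSCA 3, and that of regulators to 34 without siPSCA 1 and 38 without siPSCA 2. Calls over all genes fell too, from 7001 to 4627 without siPSCA 1, 4734 without siPSCA 2 and 5511 without siPSCA 3. With a library left out, 59 values kept their direction and side of the threshold (counts, stayed within 1.5 times), 9 lost the threshold and 4 counts moved further. Under the other settings 60 values kept both, 13 lost the threshold, 12 turned and 5 counts moved further. For the paralog ratios only the direction could count in these tallies, since their permutation p cannot fall below 0.1. The ARAF to BRAF difference thus counted as kept at 0.15 with the trend removed, although its groups then overlapped (exact permutation test, p = 0.4). The planned edgeR and DESeq2 models were not run, and limma-voom on the recovered reads replaced them.

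The values do not settle whether the replicate numbers pair the samples. Same-numbered libraries correlated at 0.0955, 0.0132 and 0.134 in their deviations from the group means, and differently numbered ones at -0.131 to 0.0417. NC 1 and NC 3 correlated best with the siPSCA library of the same number, whereas NC 2 correlated best with siPSCA 1. With a replicate block 5 of the 7 genes and 6725 of all genes were called, and NRAS lost its call (-0.19, adjusted p = 0.0571). With the block and the trend removed HRAS was at -0.33, NRAS at 0.11, ARAF at 0.15, BRAF at -0.0014, MAP2K2 at 0.052 and MAPK3 at -0.41. In that fit 2 of the 7 genes and 28 regulators were called, beside 33.5% of all genes. Depth limited PSCA, at no more than 15 reads per library.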
